A study of Mus musculus with 24 samples.

Results

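The lysosomal enzymes and membrane proteins described here are 30 genes out of 16935 tested on whole-genome expression arrays of mouse cerebellum. They are 11 peptidases and peptidase partners, 8 glycosidases, 5 lipid or acyl hydrolases, activators and granulin, and 6 membrane proteins. A gene was included when a probe was designed against a transcript of that gene, and it was followed through the probe with the brightest mean signal. All 30 had a probe and all 30 were well above background on all 24 arrays, so no member was lost to the filter on dim probes. The rule that picks the members names genes by function, but the genes were chosen with earlier results of these data known. The probe that stands for each gene was picked by its measured signal.

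The arrays came from cerebella of C57BL/6 mice killed on postnatal day 28. In the knockouts (KO), Cre recombinase under the nestin promoter, which is active in the progenitors of neurons, astrocytes and oligodendrocytes but not in the lineage of microglia, removed floxed Derlin-1 or Derlin-2; the controls were Derlin-1 flox/flox or Derlin-2 flox/flox mice, for which the labels name no Cre. Derlins are membrane proteins of the endoplasmic reticulum that take part in the removal of misfolded proteins. In the numbered series each line had control and KO groups given either 200 mg/kg of the chemical chaperone 4-phenylbutyrate (4PBA) or, as vehicle, water, by daily intraperitoneal injection from postnatal day 14 to day 28. A lettered series repeated the Derlin-1 line with the same 4PBA label; its remaining arrays name no vehicle and are called untreated. This made 12 groups of 2 arrays, and the vehicle and untreated Derlin-1 arrays together are called arrays without 4PBA. Nothing in the labels says that the 2 arrays of a group came from separate animals, so p-values measure only the spread between these samples, which may be technical.

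Lysosomes are acidic organelles in which hydrolases break down proteins, glycans and lipids that arrive by endocytosis, phagocytosis or autophagy. Most of the enzymes are sorted there by a mannose 6-phosphate tag, their pH is set by the V-ATPase proton pump, and the transcription factors TFEB and TFE3 drive many of their genes through an E-box element. In brain every cell type has lysosomes, but some lysosomal proteases and membrane proteins are most abundant in microglia, the phagocytes of the tissue.

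Between 57.7% and 68.4% of spots were well above background per array and the 75th percentile of the signal lay between 890 and 1169 intensity units, with no saturated spot. Each slide held 8 arrays, namely the numbered Derlin-1, the Derlin-2 and the lettered Derlin-1 arrays. Within a slide the controls filled the left columns and the KO arrays the right ones, and 4PBA arrays formed the lower row, so slide position and group cannot be told apart. The probe for Derl1 did not separate the genotypes: its level ran from 0.76 to 1.22 in Derlin-1 controls and from 0.14 to 0.94 in Derlin-1 KO arrays; whether it lies in the deleted part was not known. The brighter Derl2 probe read 1.40 to 1.58 in the 4 Derlin-2 controls and 0.48, 0.18 and 0.24 in 3 of the Derlin-2 KO arrays, but 1.72 in the array that is labelled KO vehicle 1. Derl3, the third Derlin gene, did follow the label of that array: it read -1.85 there, from -1.96 to -0.61 in the other 3 Derlin-2 KO arrays and from -3.03 to -2.75 in the 4 controls. In the Derlin-1 line the lettered array labelled KO 4PBA b stood apart in Derl3, which read from -0.63 to 0.37 in the other 7 Derlin-1 KO arrays and -2.27 in this array, within the range of the Derlin-1 controls, -3.14 to -1.69. For the members, the comparisons that hold either array are followed by values without it. Medians of the other gene lists hold all arrays unless stated.

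Levels are written as log2 of a probe's signal over the 75th percentile of its array, so that 0 is as bright as that percentile, and a change is a difference of mean levels. Levels of different genes come from different probes and are not compared. Residual standard deviations around the group means had a median of 0.13 over the members, against 0.16 over all genes. They were under 0.2 for 25 members and were widest for Grn, at 0.69, and Cd68, at 0.46. The range over the 24 arrays was under 1 log2 unit for 21 members. It was narrowest for Ctsb, from 5.47 to 5.84, and Psap, from 4.66 to 5.06.

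Without 4PBA, 9 of the 30 lysosomal genes changed in the Derlin-1 knockout, 7 upward and 2 downward. The cathepsins Ctss, Ctsz and Ctsd, the glycosidases Gusb and Man2b1 and the membrane proteins Cd68 and Laptm5 rose, and the glycosidase Manba and the acid ceramidase Asah1 fell. The rises of Ctss, Cd68 and Laptm5 lay between 2.24 and 2.66 fold, and the other 6 changes between 0.774 and 1.38 fold. A gene was called when the adjusted p of the limma fit over all genes was under 0.05. By that rule 10.6% of all genes were called, 5.26% higher and 5.37% lower, beside 30% of the members. The median change of the members was 0.11, with 18 of 30 above 0, against a median of -0.01 over all genes with 48.8% above 0. The median depended on the scaling and the slide. It was 0.00 after scaling by the array median, which moved the median of all genes to -0.12. It was 0.20 on the numbered and -0.03 on the lettered slide. In 12 members, 8 higher and 4 lower, the KO and control arrays did not overlap on either slide, in the same direction on both. The same held for 23.9% of all genes. Among the 4 lower members was Grn by its brightest probe, whose direction its other 2 probes did not share. The 9 called genes differed in the same direction on both slides, but the numbered slide alone gave no called member and the lettered slide alone gave 3, Ctss, Laptm5 and Manba. The count was 4 (Cd68, Ctss, Laptm5 and Manba) after scaling by the array median, and 3 (Ctss, Ctsz and Laptm5) when either Derlin-1 KO vehicle 2 or KO untreated a was left out.

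**Figure D1:**
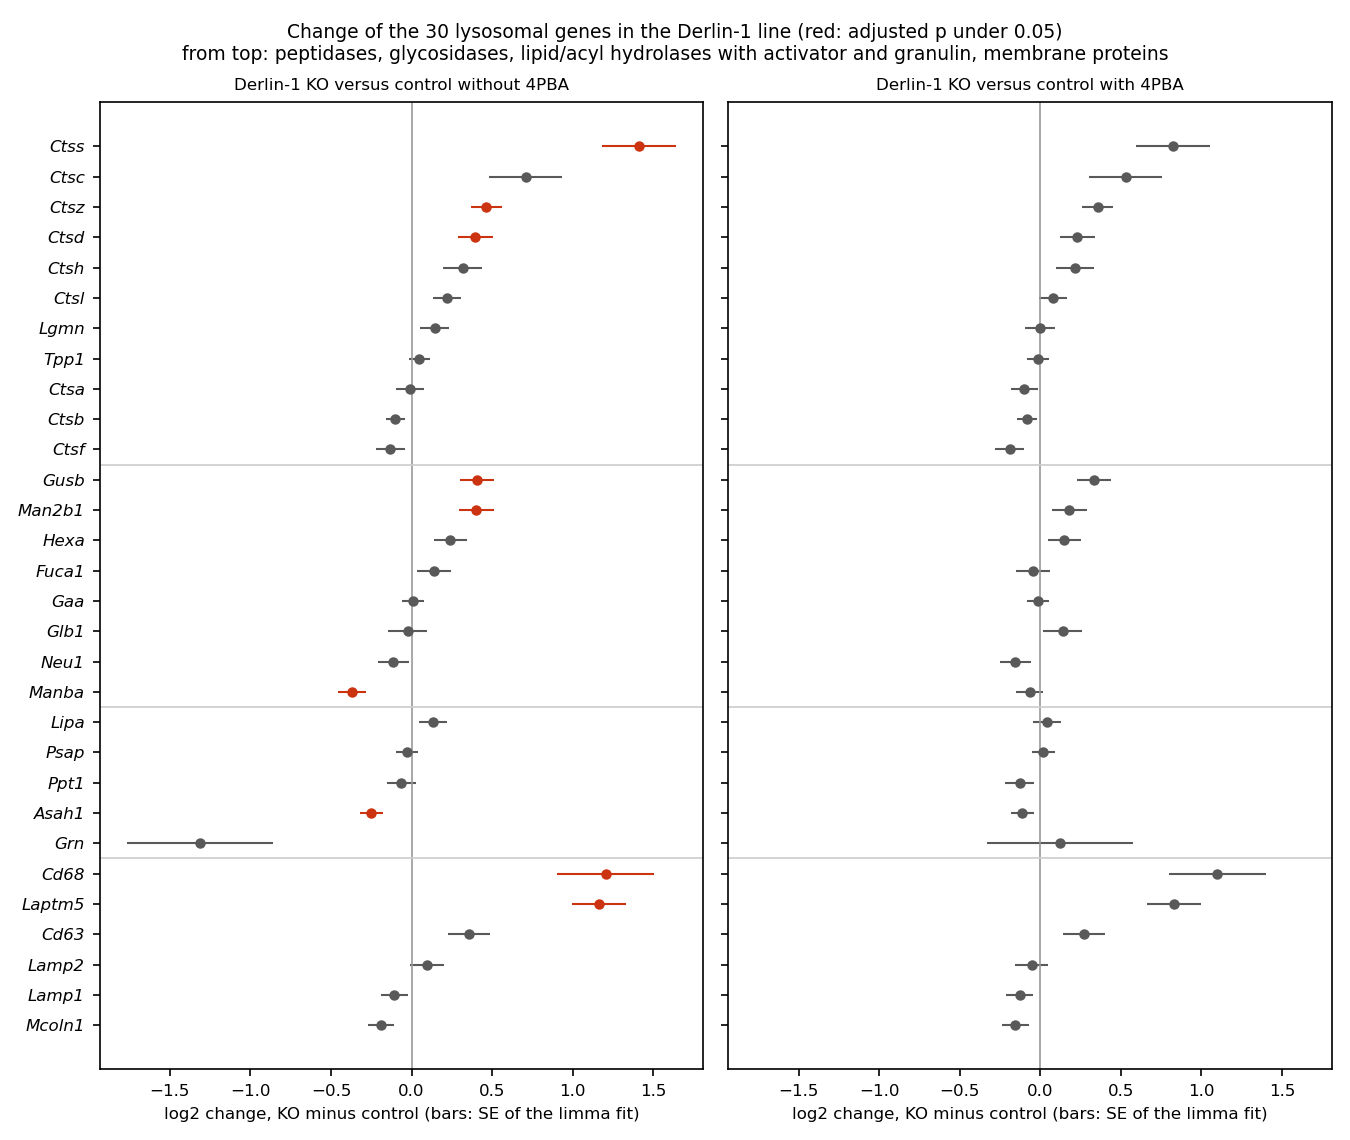
Log2 change of each of the 30 genes between Derlin-1 KO and control arrays without 4PBA (left) and with 4PBA (right), with the standard error of the limma fit as bars; horizontal lines part the 4 roles and red marks an adjusted p under 0.05. The 9 red points are all in the left panel; on the right the changes of Cd68, Laptm5 and Ctss are again the widest above 0, at 1.098, 0.831 and 0.825, and Grn carries the longest bars in both panels.

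The promoters of the members were read for the element bound by TFEB because genes that share it could move together. The set of RefSeq promoters used (GRCm38.p6) gave a start for 27 members. Ctsb, Ctsh and Asah1 were not in this set. In the 250 bases before the start, read on both strands, the E-box CACGTG occurred in 9 of the 27 members (33.3%): Ctsa, Ctsd, Ctsf, Ctsl, Gaa, Glb1, Lamp1, Lgmn and Mcoln1. It occurred in 6.86% of all 27025 genes of the table and in 6.02% of its 32851 promoters of that length. The longer form TCACGTGA, which holds the E-box, occurred in 3 members, Ctsa, Ctsd and Mcoln1, and in 0.907% of all genes. The last 150 bases before the start are shown for Ctsd, the called member with the motif, for Mcoln1 and Lamp1, members with repeated E-boxes that were not called, and for Ctss and Laptm5, called members without the motif. Capitals mark CACGTG.
Ctsd, chr7:142387828-142387977 on the minus strand: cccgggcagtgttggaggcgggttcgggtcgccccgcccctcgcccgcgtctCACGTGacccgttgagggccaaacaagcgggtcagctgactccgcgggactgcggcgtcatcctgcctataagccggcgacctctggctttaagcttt
Mcoln1, chr8:3500369-3500518 on the plus strand: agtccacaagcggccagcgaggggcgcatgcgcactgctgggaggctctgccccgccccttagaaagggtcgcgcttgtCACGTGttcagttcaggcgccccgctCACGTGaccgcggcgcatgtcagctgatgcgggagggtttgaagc
Lamp1, chr8:13159011-13159160 on the plus strand: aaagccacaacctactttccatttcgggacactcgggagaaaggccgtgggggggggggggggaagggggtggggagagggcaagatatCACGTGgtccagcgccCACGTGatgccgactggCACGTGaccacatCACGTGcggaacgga
Ctss, chr3:95526636-95526785 on the plus strand: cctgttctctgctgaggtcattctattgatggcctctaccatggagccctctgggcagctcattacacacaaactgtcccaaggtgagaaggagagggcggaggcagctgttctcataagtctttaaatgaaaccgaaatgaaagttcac
Laptm5, chr4:130913166-130913315 on the plus strand: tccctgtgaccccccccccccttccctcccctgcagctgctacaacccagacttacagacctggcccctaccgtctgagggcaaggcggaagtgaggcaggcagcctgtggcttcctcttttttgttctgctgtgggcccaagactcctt
Lamp1 had 4 E-boxes, which began 61, 45, 28 and 15 bases before the start, and Mcoln1 had 2, at 71 and 45 bases. Ctsd had 1 in the stretch shown, at 98 bases, and another at 245 bases. Of the 9 members with the E-box 1, Ctsd, was called in the Derlin-1 knockout without 4PBA, a share near the 10.6% of all genes, and the median change of the 9 was -0.01, from -0.19 for Mcoln1 to 0.40 for Ctsd. Of the 18 members with a promoter but no E-box, 7 were called and the median change was 0.19. The difference between these counts was not tested; they describe short windows and say nothing of the factor itself.

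The peptidases gave the widest rise. Ctss encodes cathepsin S, a cysteine protease of microglia and other antigen-presenting cells. Without 4PBA it read 2.08 and 2.17 in the numbered Derlin-1 controls and 3.497 and 3.517 in the knockouts, and 2.34 and 2.27 against 3.96 and 3.53 in the lettered series. All 4 KO arrays lay above all 4 controls. The change was 1.41 ± 0.23 (SE; 2.66 fold, limma adjusted p = 0.00341). In bulk tissue, more cells of a type and more RNA per cell cannot be told apart. Ctsz, cathepsin Z, a carboxypeptidase, read 1.048 and 1.102 in numbered controls, 1.61 and 1.71 in their knockouts, 1.67 and 1.51 in lettered controls and 1.92 and 1.94 in their knockouts. The groups did not overlap within a slide, but lettered controls reached the level of numbered knockouts. Its change was 0.46 ± 0.10 (SE; limma adjusted p = 0.00907).

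Ctsd encodes cathepsin D, the main aspartic protease of lysosomes. It read 3.81 and 3.68 in numbered controls against 4.13 and 4.30 in knockouts, and 4.36 and 4.01 in lettered controls against 4.52 and 4.50 in knockouts. Here too the groups were apart within each slide and overlapped across slides, and the change was 0.40 ± 0.11 (SE; limma adjusted p = 0.0343). Ctsc, the dipeptidyl peptidase that activates granule proteases, had the next largest peptidase change, 0.71 ± 0.23 (SE; limma adjusted p = 0.0605), and did not pass: a lettered control at -2.22 lay between the lettered knockouts at -1.65 and -2.23. Ctsh, an aminopeptidase, differed by 0.32 (limma adjusted p = 0.105) although its KO arrays, 1.892 to 2.001, were all above the controls, 1.43 to 1.86. The differences of the remaining peptidases and partners were 0.22 for Ctsl, 0.14 for the asparaginyl endopeptidase Lgmn, 0.05 for the tripeptidyl peptidase Tpp1, -0.01 for Ctsa, which stabilises Glb1 and Neu1, -0.10 for Ctsb and -0.13 for Ctsf. None of these 6 passed. In all, 3 of 11 rose, beside 5.26% of all genes called higher, none fell and the median was 0.22.

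Among the glycosidases 2 of 8 rose and 1 fell, beside 5.26% of all genes called higher and 5.37% called lower. Their median was 0.07, or -0.04 after scaling by the array median. Gusb, beta-glucuronidase, read -0.92 and -0.87 in numbered controls against -0.47 and -0.34 in knockouts, and -0.49 and -0.77 in lettered controls against -0.21 and -0.41 in knockouts. All 4 knockouts were above all 4 controls, and the change was 0.41 ± 0.11 (SE; limma adjusted p = 0.0254). Man2b1, the alpha-mannosidase whose loss causes alpha-mannosidosis, read 0.67 and 0.62 against 0.88 and 1.04 on the numbered slide. On the lettered slide it read 1.17 and 0.86 against 1.65 and 1.36. The 2 genotypes were apart on each slide, and the change was 0.40 ± 0.11 (SE; limma adjusted p = 0.0307). Manba, the beta-mannosidase of the last step of N-glycan breakdown, moved the other way. It read -0.28 and -0.32 in numbered controls against -0.55 in both knockouts, and 0.00 and 0.07 in lettered controls against -0.53 and -0.39 in knockouts. All knockouts were below all controls, and the change was -0.37 ± 0.09 (SE; limma adjusted p = 0.0163). The other 5 did not pass: Hexa, the alpha subunit of beta-hexosaminidase, differed by 0.24, Fuca1 (alpha-fucosidase) by 0.14, Gaa (acid alpha-glucosidase) by 0.01, Glb1 (beta-galactosidase) by -0.02 and Neu1 (sialidase) by -0.11. For Hexa the difference was 0.43 on the numbered slide and 0.05 on the lettered slide.

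Beside 10.6% of all genes called either way, of the 5 lipid and acyl hydrolases, activators and granulin only Asah1 was called. It encodes acid ceramidase, which splits ceramide into sphingosine and fatty acid. It read 1.74 and 1.72 in numbered controls against 1.57 and 1.45 in knockouts, and 1.89 and 1.69 in lettered controls against 1.52 and 1.49 in knockouts. All knockouts were below all controls, by 0.25 ± 0.07 on average (SE; limma adjusted p = 0.0374), and its second probe differed by -0.18. Lipa, the lysosomal acid lipase, differed by 0.13, Psap, the precursor of the saposins that activate sphingolipid hydrolases, by -0.03, and Ppt1, palmitoyl-protein thioesterase, by -0.06. None of these 3 passed.

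Grn, which encodes progranulin, a secreted and lysosomal glycoprotein, gave different answers from its 3 probes. By its brightest probe it read 5.08 and 7.15 in numbered controls against 4.88 and 3.29 in knockouts, and 7.42 and 7.36 in lettered controls against 6.39 and 7.19 in knockouts. The 2 numbered controls lay far apart and the genotypes overlapped across slides, and the change of -1.32 ± 0.45 (SE; limma adjusted p = 0.078) did not pass. The 2 dimmer probes differed in the opposite direction. One changed by 0.55 ± 0.10 (SE; limma adjusted p = 0.00947 over 38115 probes) and the other by 0.28 ± 0.08 (SE; limma adjusted p = 0.0711). Over the 24 arrays the brightest probe ranged over 4.27 log2 units, the other 2 over 1.68 and 0.64. No direction is therefore given for Grn.

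**Figure D2:**
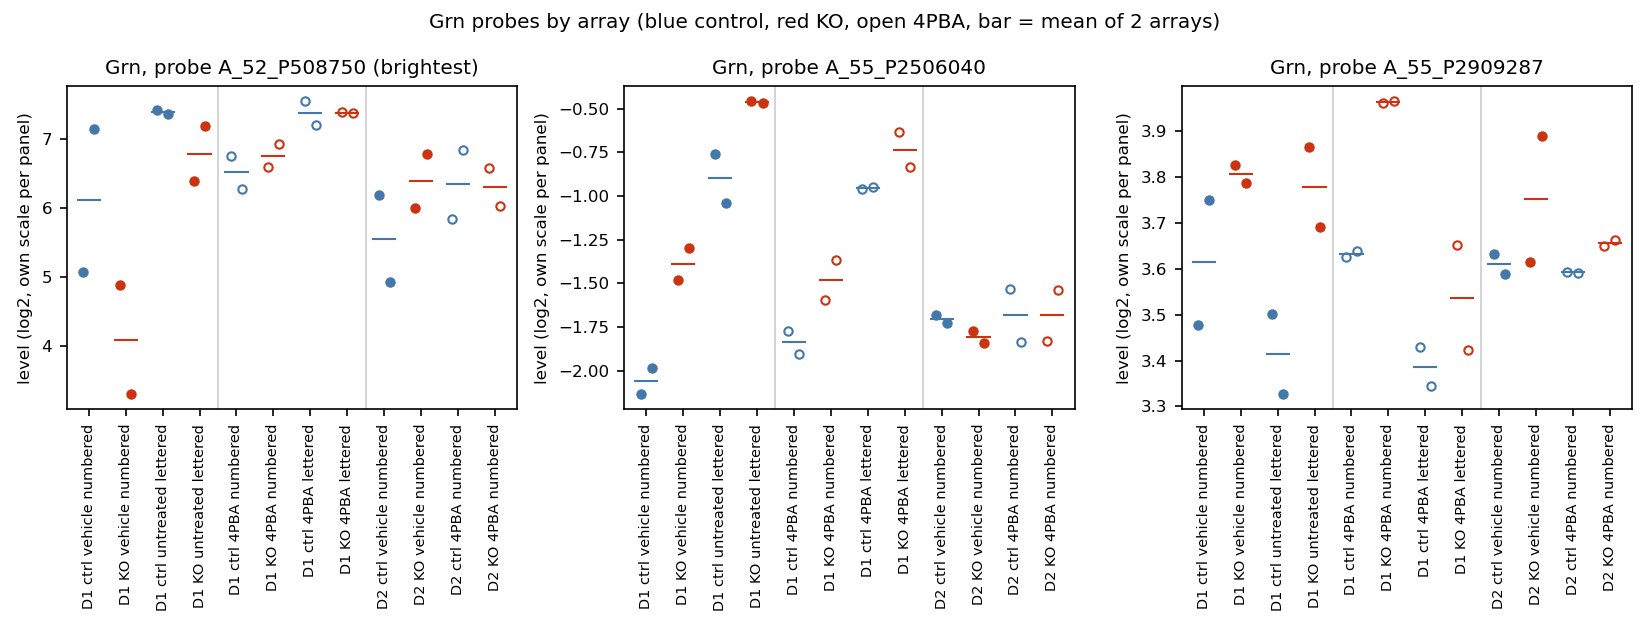
Levels of the 3 Grn probes on all 24 arrays by group, each panel on its own log2 scale, with blue for controls, red for knockouts, open symbols for 4PBA and bars for the mean of 2 arrays. The brightest probe (left) falls to 3.29 in a numbered Derlin-1 KO array and reaches 7.56 in a lettered control with 4PBA, whereas the other probes are higher in the Derlin-1 knockouts without 4PBA on both slides.

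Of the 6 membrane proteins 2 rose, beside 5.26% of all genes called higher. Cd68, the macrosialin of phagocyte lysosomes, read -1.32 and 0.09 in numbered controls against 0.11 and 0.36 in knockouts, and -0.70 and -0.86 in lettered controls against 1.01 and 0.57 in knockouts. A numbered control lay next to the lowest knockout, and the change was 1.21 ± 0.30 (SE; 2.31 fold, limma adjusted p = 0.0222). The dimmer Cd68 probe read -3.74 in that same control, the lowest of its 24 values, and gave a change of 1.70 ± 0.26 (SE; limma adjusted p = 0.00534 over all probes). Laptm5, a transmembrane protein of lysosomes in blood-derived cells and microglia, had the smallest p of all members. It read -3.11 and -2.95 in numbered controls against -2.10 and -1.90 in knockouts, and -3.06 and -3.32 against -1.78 and -1.99 in the lettered series. All 4 knockouts lay above all 4 controls, and the change was 1.17 ± 0.17 (SE; 2.24 fold, limma adjusted p = 0.00242). The tetraspanin Cd63 differed by 0.36 (limma adjusted p = 0.0921), Lamp2 by 0.10, Lamp1 by -0.11 and the calcium channel Mcoln1 by -0.19, and none passed. Lamp1 and Lamp2 are the abundant glycoproteins of the lysosomal membrane, and the standard errors of their differences were 0.08 and 0.10.

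**Figure D3:**
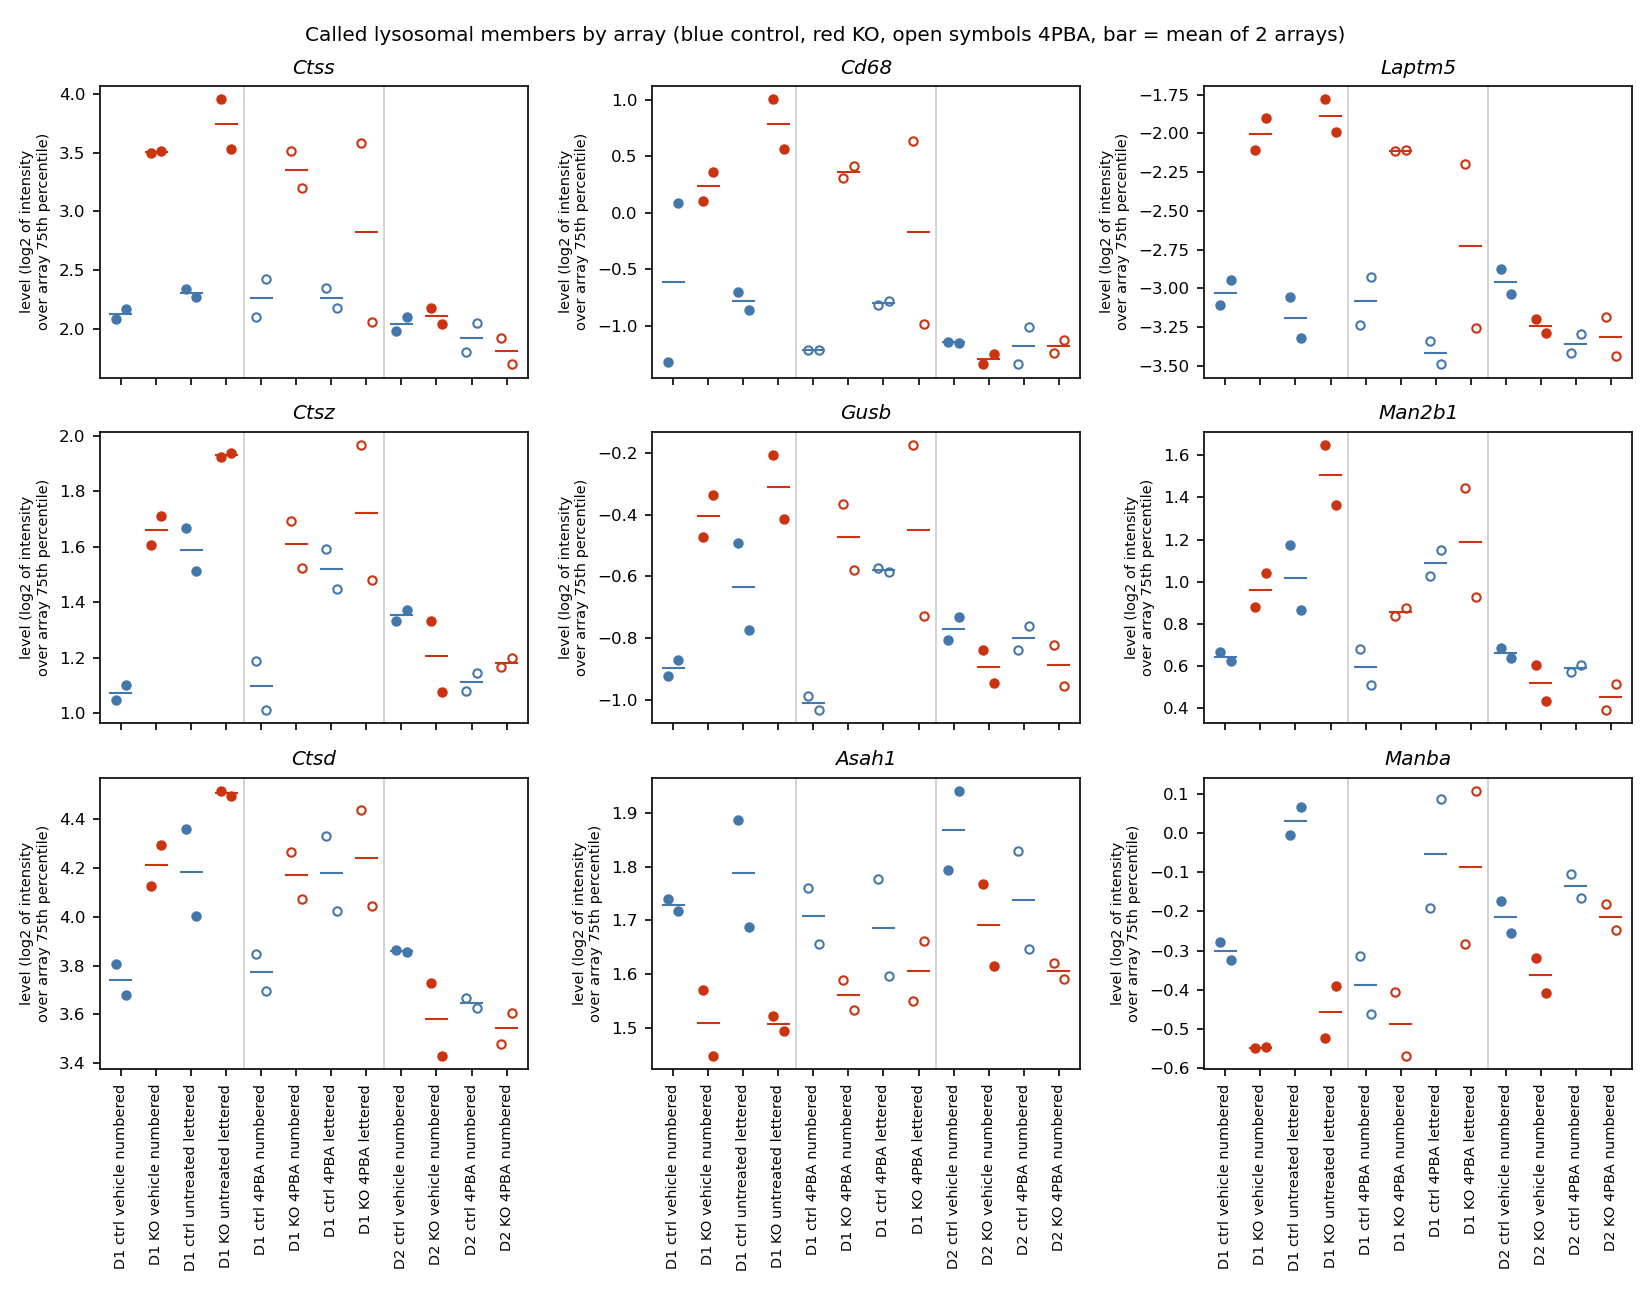
Levels of the 9 genes called in Derlin-1 KO arrays without 4PBA, on all 24 arrays by group (blue controls, red knockouts, open symbols 4PBA, bars the mean of 2 arrays); the y axes are log2 of intensity over the 75th percentile of the array and differ between panels. Ctss, Cd68 and Laptm5 are high in the Derlin-1 knockouts, except for the low array of the lettered KO 4PBA group (2.06 for Ctss), and no Derlin-2 group rises above its controls in the same way.

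The rises were unequal over the members. For 6 of them, Ctss, Laptm5, Cd68, Ctsh, Ctsc and Ctsz, microglia are known as a main site of expression in brain. All 6 were above 0, 4 (66.7%) were called, and their median change was 0.94, with 0.788 on the numbered and 0.999 on the lettered slide. The other 24 had 12 changes above and 12 below 0, 5 calls and a median of 0.00, or 0.01 without Grn, beside the 10.6% of all genes called. The sorting of members into these sets was made with earlier results of these data known. Microglia markers moved alongside: 12 of 13 were above 0 and 10 were called higher, with a median change of 1.29. Their mean level was 0.23 to 0.52 in the 4 Derlin-1 controls without 4PBA and 1.28 to 1.45 in the 4 knockouts. All 13 were above background on every array. The 3 not called were P2ry12 (0.24), Tmem119 (0.29) and Itgam (-0.12), while Trem2 (1.77), Tyrobp (1.496), Aif1 (1.49), C1qb (1.44) and C1qa (1.43) changed most. Their part in the lysosomal changes was not tested. Of 6 markers of border macrophages and monocytes above background, 3 rose: Cd163 (1.19), F13a1 (0.89) and Lyve1 (0.84). Ccr2 did not pass the filter.

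**Figure D4:**
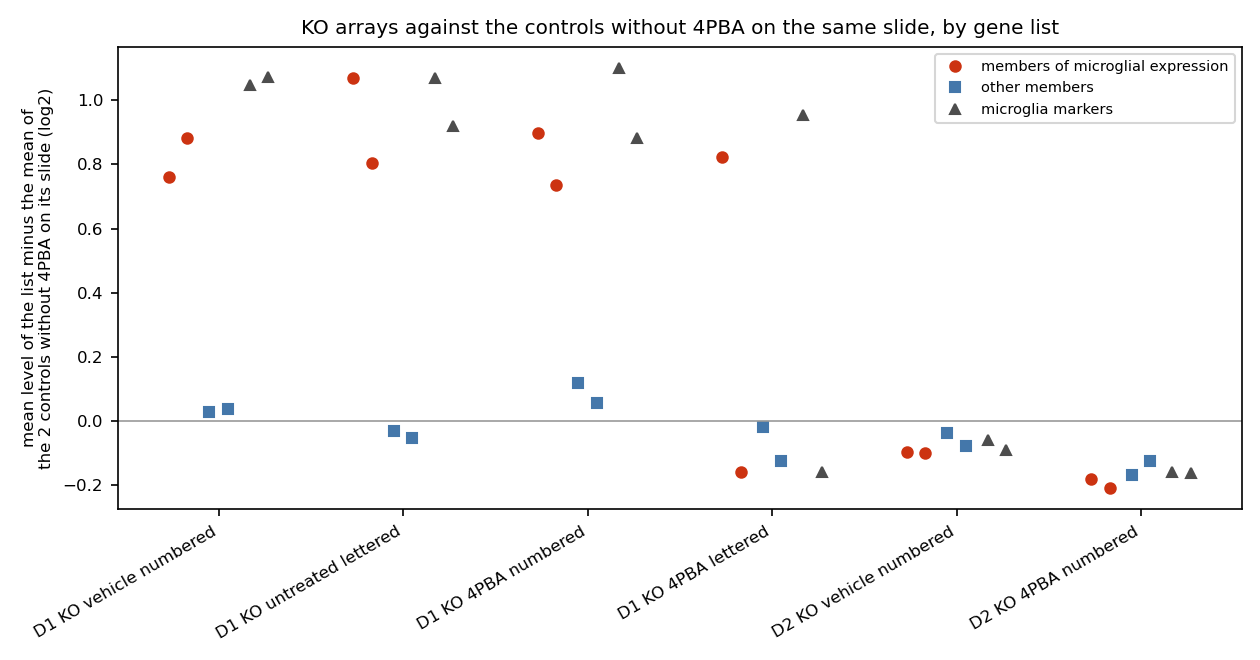
Mean level of 3 gene lists in each KO array minus the mean of the 2 controls without 4PBA on its slide, in log2 units; each point is 1 array. The 6 members of microglial expression (circles) and the 13 microglia markers (triangles) lie between 0.737 and 1.1 in 7 of the 8 Derlin-1 KO arrays and at -0.16 in the array labelled KO 4PBA b, while the other 24 members (squares) lie between -0.17 and 0.12 in all KO arrays; without Grn, whose probes disagree, the remaining 23 lie between -0.22 and 0.16.

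The remaining genes of the pathway were counted in the same comparison. The 35 other lysosomal hydrolases and activators had a median change of 0.03, or -0.09 after scaling by the array median, and 2 were called higher and 1 lower, which is 8.57% of the list beside 10.6% of all genes, a share near the background. Lysozyme, Lyz2, rose by 1.64 among them. Of 32 other lysosomal membrane proteins and transporters, 2 rose, the peptide transporter Slc15a3 (1.76) and the metal transporter Slc11a1 (1.27), with a median of 0.00, or -0.11 after scaling by the array median. This is 6.25% of the list beside 5.26% of all genes called higher, also near the background. Among 18 subunits of the V-ATPase, the pump that acidifies lysosomes and synaptic vesicles, 6 fell and 17 were below 0, with a median of -0.18. Over all genes 5.37% were called lower. The subunit changes were -0.44 for Atp6v1e1, -0.42 for Atp6v1g2, -0.35 for Atp6v1a, -0.34 for Atp6v0e2 and -0.25 for Atp6v1c1. The median was below 0 under every scaling, from -0.30 to -0.10. No subunit was called without scaling, and 5 were called after scaling by quantiles or by the median. Of 27 sorting and regulatory genes, 2 fell, Flcn (-0.30) and Rptor (-0.27), which is 7.41% of the list beside 5.37% of all genes called lower and 10.6% called either way, a share near the background. Tfeb and Tfe3 were not called. Of 6 cathepsin inhibitors, 3 rose, Cst7, Serpina3n (2.34) and Cst3 (0.40), and Cst6 fell by 0.57, beside 10.6% of all genes called either way. Cst7 was not well above background on any of the 4 controls, so its change is a bound. The mean of the knockouts was at least 15.3-fold higher than the dimmest signal well above background on the control arrays, or the probe's own where that was brighter. The bound itself was not tested, and the limma adjusted p of 0.0042 belongs to the fit on the probe's own values. Serpina3n and Slc15a3 were above background on 3 and Lyz2 on 2 of the 4 controls.

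Markers of other cells gave a mixed picture beside these values. Of 9 granule neuron markers 5 fell, beside 5.37% of all genes called lower, and the median was -0.33. Those that fell were Vsnl1 (-0.78), Gabra6 (-0.76), Neurod1 (-0.68), Grin2c (-0.33) and Zic1 (-0.29). Of 8 astrocyte and Bergmann glia markers only Gfap rose, by 1.25, beside 5.26% of all genes called higher. No marker of oligodendrocytes, Purkinje cells, endothelium and blood or choroid plexus was called, with medians of -0.12, -0.08, -0.03 and -0.97, of which that of the Purkinje cells was 0.08 after quantile normalization. The mean level of the choroid plexus markers ran from -2.93 to 3.18 over the Derlin-1 knockouts without 4PBA and from -1.62 to 2.65 over their controls. Their part in the lysosomal changes was not tested.

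With 4PBA no member was called between Derlin-1 knockouts and controls, beside 0.0472% of all genes, and 7 members had an unadjusted p under 0.05, as had 2166 of the 16935 genes. The smallest p belonged to Laptm5 (0.83 ± 0.17, SE; limma adjusted p = 0.0909), Ctsz (0.36; limma adjusted p = 0.159) and Cd68 (1.098; limma adjusted p = 0.167). Laptm5 read -2.11 in both numbered knockouts and -2.20 and -3.25 in the lettered ones, against -3.24, -2.93, -3.34 and -3.49 in the controls. The low value was that of lettered array b. Laptm5 was the only member whose groups were apart on both slides, as were 6.53% of all genes; without array b this held for 17 members beside 26.8% of all genes. Without array b, 5 members were called higher, beside 6.18% of all genes called either way: Laptm5 (1.095; limma adjusted p = 8.16e-05), Ctss (1.21; 0.000109), Cd68 (1.504; 0.00258), Ctsz (0.48; 0.00366) and Gusb (0.47; 0.00598). In this array the microglia markers had a mean level of 0.225, next to the lowest of the Derlin-1 controls, which ran from 0.228 to 0.574, against 1.12 to 1.34 in the other 3 Derlin-1 knockouts with 4PBA. The part of these markers in the result was not tested. Manba and Asah1, which had fallen without 4PBA, differed by -0.07 and -0.11 here, and by -0.17 and -0.14 without array b, where neither was called.

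The effect of 4PBA itself was read within each genotype and line. In Derlin-1 controls no member was called (0.0295% of all genes), the median was -0.02 and 11 of 30 were above 0. The smallest p belonged to Cd68 (-0.31), Manba (-0.09) and Ctsb (-0.05), with a limma adjusted p of 1 for each. In Derlin-1 knockouts again none was called (0.0354% of all genes), the median was -0.08, and 6 of 30 were above 0, as were 46.8% of all genes. All 13 microglia markers were below 0 as well, with a median of -0.38 and none called, and the 4 choroid plexus markers were above 0, with a median of 1.76. The microglia median was -0.08 on the numbered slide, with 2 of 13 above 0, and -0.69 on the lettered slide, which holds array b. The choroid plexus median was 1.74 on the numbered and 1.62 on the lettered slide. The part of these markers in the result was not tested. Grn (1.64; limma adjusted p = 0.59), Laptm5 (-0.47) and Manba (0.22; both limma adjusted p = 0.734) had the smallest p, but the other 2 Grn probes differed by -0.18 and -0.04. Without array b none was called (0.0591% of all genes), the median was -0.02 and 9 of 30 were above 0; Grn differed by 1.64, Laptm5 by -0.21, Manba by 0.12 and Ctss by -0.16, each with a limma adjusted p of 1. Ctss (-0.92; limma adjusted p = 0.00335) and Laptm5 (-0.74; limma adjusted p = 0.00554) passed as lower only where array b was kept and its lettered partner, array a, was left out. On the numbered slide, which holds no doubted array, they differed by -0.15 and -0.11. The difference of the knockout effect with and without 4PBA was tested directly and no member was called (0.0118% of all genes). Manba (0.30), Grn (1.44) and Ctss (-0.59) had the smallest p, with a limma adjusted p of 0.999. Without array b again none was called (0.0295% of all genes), with differences of 0.20, 1.44 and -0.20, each with a limma adjusted p of 1. Ctss passed (-0.97; limma adjusted p = 0.042) only with array b kept and array a left out. The comparisons of 4PBA in knockouts share their KO arrays with the knockout comparisons above.

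The Derlin-2 line gave no called member with vehicle, beside 0.118% of all genes, or with 4PBA, beside 0.136% of all genes. Changes were mostly below 0. With vehicle 23 of 30 were below 0 and the median was -0.10, against -0.01 over all genes, of which 48.7% were above 0. Without scaling the members' median was 0.04 and that of all genes 0.13. With 4PBA 25 of 30 were below 0, with a median of -0.10 against -0.03 over all genes and 42% of them above 0. All 8 glycosidases were below 0 in both comparisons with the scaling by the 75th percentile. Ctsf, a cysteine protease mutated in a late form of neuronal ceroid lipofuscinosis, read 1.571 and 1.496 in vehicle controls against 1.25 and 0.92 in knockouts, which is a change of -0.45 ± 0.13 (SE; limma adjusted p = 0.313). Mcoln1 read 3.41 and 3.52 against 3.25 and 3.0 (-0.34; limma adjusted p = 0.466), and Ctsd 3.86 in both controls against 3.73 and 3.43 (-0.28; limma adjusted p = 0.694). In each of these 3 the groups were apart and the array labelled KO vehicle 1 was the one nearer to the controls. Without that array, where the lone KO array is assumed to vary like the other groups, the changes were -0.61, -0.46 and -0.43, and still no member was called, beside 0.487% of all genes; the median of the 30 was -0.11, with 23 again below 0.

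With 4PBA the smallest p in the Derlin-2 line belonged to Lamp1 (-0.24), Tpp1 (-0.19) and Ctsf (-0.25), each with a limma adjusted p of 1. Lamp1 read 6.33 and 6.23 in controls and 6.00 and 6.09 in knockouts. The groups were apart on the slide for 14 members with vehicle, 13 of them lower, beside 46.2% of all genes apart and 24.5% apart and lower. Without KO vehicle 1, a single KO array was left, and 24 members were apart, 19 of them lower, beside 78.1% and 43.3% of all genes. With 4PBA this held for 15 members, 13 of them lower, beside 38.5% and 24.5% of all genes. The 6 members of microglial expression had medians of -0.15 with vehicle and 0.02 with 4PBA, and the microglia markers -0.08 and -0.04. Without KO vehicle 1 the vehicle medians were -0.06 and -0.15. Markers of astrocytes and Bergmann glia had medians of -0.21 with vehicle (7 of 8 below 0) and -0.13 with 4PBA, those of oligodendrocytes -0.13 and -0.28, and those of the choroid plexus 0.40 and 2.05, with none called. The vehicle medians of these lists include KO vehicle 1, and values without it are not given. The part of these markers in the members' changes was not tested. For 4PBA against vehicle, the controls had 25 and the knockouts 22 of 30 members below 0, with medians of -0.09 and -0.08, against -0.04 and -0.06 over all genes. In the controls the choroid plexus markers (median -1.52) and the astrocyte and Bergmann glia markers (-0.19) were all below 0. In the knockouts, with KO vehicle 1 included, so were those of Purkinje cells (-0.25) and of endothelium and blood (-0.33). None of these markers was called, and their part was not tested. No member was called, beside 0.13% of all genes in controls and 0.136% in knockouts. Gaa (-0.24; limma adjusted p = 0.882), Ctsc (-0.72; 0.936) and Ctsb (-0.17; 0.984) had the smallest p in controls. In knockouts these were Lamp1 (-0.40; limma adjusted p = 0.291), Ctsb (-0.27; 0.334) and Tpp1 (-0.23; 0.467). Without KO vehicle 1 the median in knockouts was -0.03 with 13 of 30 above 0, against -0.03 over all genes, and none was called (0.487% of all genes). Lamp1 then differed by -0.47, Ctsb by -0.31 and Tpp1 by -0.24.

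**Figure D5:**
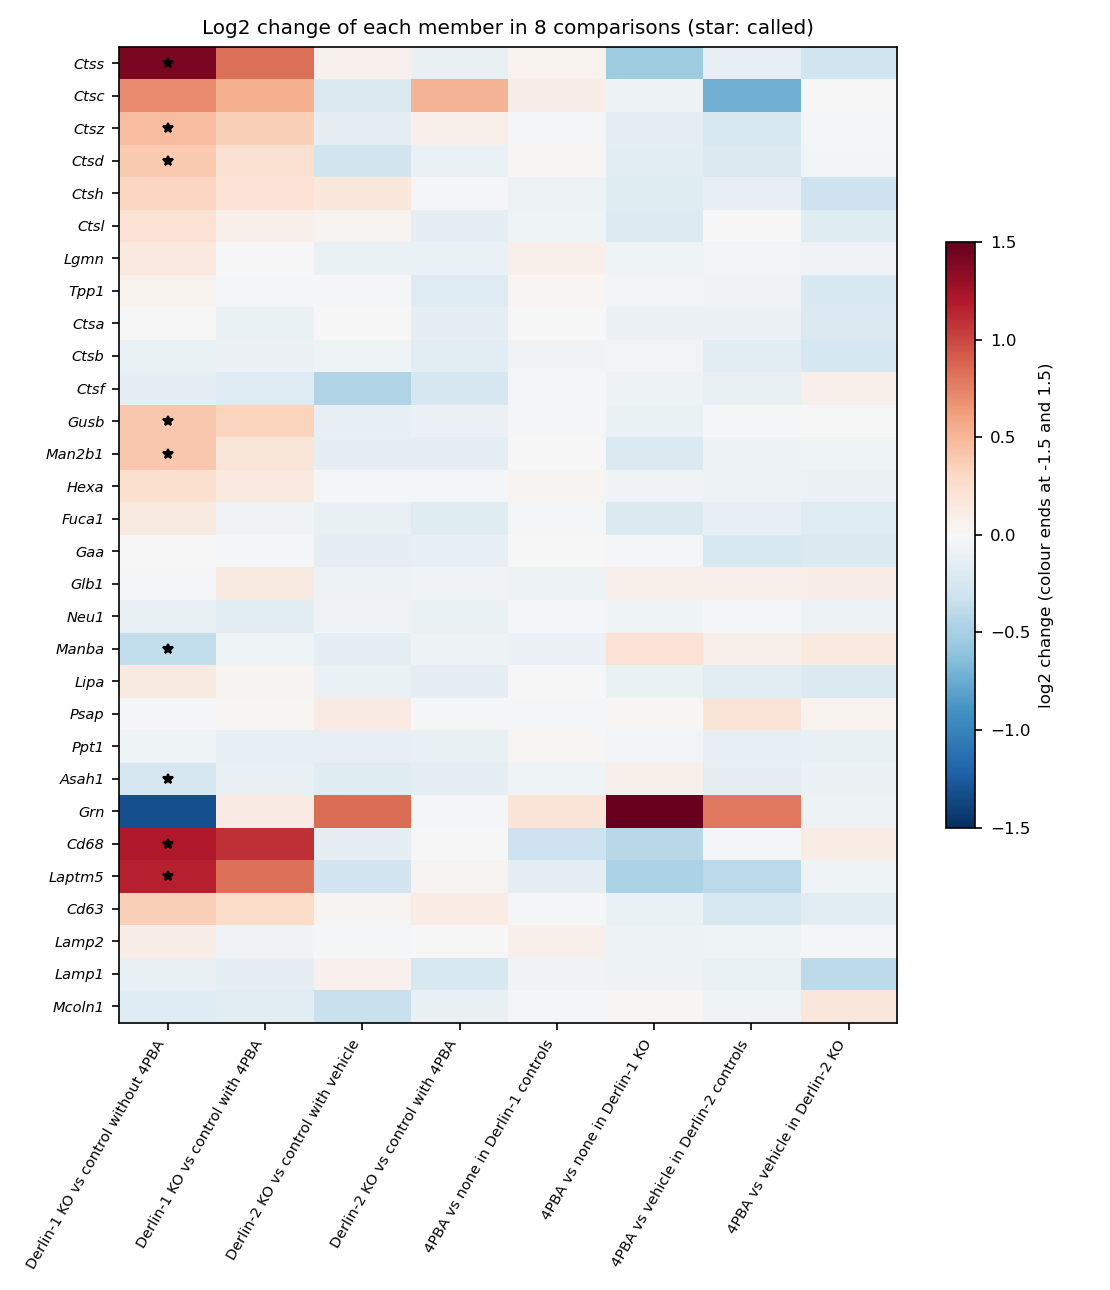
Log2 change of each of the 30 genes (rows, by role) in 8 comparisons (columns), coloured from blue (lower) to red (higher) with the scale ending at -1.5 and 1.5; a star marks an adjusted p under 0.05. All stars are in the first column; the 2 columns of the Derlin-2 knockout are mostly pale blue, and the Grn row shows its brightest probe alone, which the other 2 Grn probes do not follow.

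Whether the 2 lines differed in their knockout effect without 4PBA was tested as an interaction, and no member was called (0.065% of all genes), although 9 members had an unadjusted p under 0.05, as had 2378 of the 16935 genes. The difference, Derlin-1 minus Derlin-2, was 1.45 ± 0.29 for Laptm5 (SE; limma adjusted p = 0.0999), 0.61 for Ctsz (limma adjusted p = 0.147) and 0.68 for Ctsd (limma adjusted p = 0.16). For Ctss it was 1.35 (limma adjusted p = 0.172). With both doubted arrays left out, Laptm5 (1.498; limma adjusted p = 0.00442), Ctss (1.42; 0.0102) and Ctsz (0.74; 0.0157) were called, beside 1.66% of all genes. This leaves 1 Derlin-2 KO vehicle array, which is assumed to vary like the arrays of the other groups. None was called with only Derlin-2 KO vehicle 1 left out. The 3 genes were also called, beside 2.03% of all genes, when either lettered Derlin-1 KO 4PBA array was left out; neither array enters this difference other than through the estimate of the spread. The difference of the Derlin-1 effect between the lettered and the numbered series was not called for any member (0.0059% of all genes). Tpp1 (-0.27), Lipa (-0.31) and Hexa (-0.37) had the smallest p, with a limma adjusted p of 0.978.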

How the data were processed

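RNA of 24 cerebellum samples was measured on one-colour Agilent 60-mer arrays. The deposited scanner files hold intensity values per spot from Agilent Feature Extraction 10.7.1.1, per the submitters' processing notes, and per the file headers the processed signal is already background-subtracted. The deposited values of the whole series were read as intensities, not as scaled log2 values. For probes with a single spot, their log2 matched that of the processed signal before scaling to within 1.74e-06. Outlier and control spots were left out, spots of a probe were averaged, log2 of the processed signal was centred on each array's 75th percentile, and probes that were well above background on the whole of some group (both its arrays) entered the fit. Gene names came from transcript accessions through RefSeq: 32994 of 56605 probes were named, which gave 16935 tested genes, each by its brightest probe.

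Group means were fitted over all 24 arrays with limma 3.58.1 (lmFit and eBayes, R 4.3.3). Derlin-1 comparisons averaged the numbered and lettered series, and p-values were adjusted over all genes by Benjamini-Hochberg. The number of arrays limits the precision. Over all genes the median standard error was 0.11 for the Derlin-1 knockout without 4PBA and 0.15 for the Derlin-2 knockout with vehicle. Named were the members called in a comparison, the 3 with the smallest p where none was called, and up to 5 called genes of each other list. Uncalled list genes and values beyond this rule were chosen after they were seen. The members and lists were chosen with earlier results of these data known. The fit was tested on simulated data. The planned background correction from mean spot signals was run on median spot signals. Some results of the other lysosomal hydrolases are not reported here.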

Additional observations from a re-analysis of the deposited data

How the results depend on the processing

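Under 39 other settings (24 of them leaving out 1 array each) the 9 called changes of the Derlin-1 knockout without 4PBA kept their sign in every setting. Ctss and Laptm5 passed the test in 38 of them, Ctsz and Manba in 35, Cd68 in 31, Gusb in 30, Ctsd and Man2b1 in 27 and Asah1 in 21. The count of called members fell from 9 to 4 with scaling by the median, where 1208 genes were called in place of 1800, to 2 without scaling (569 genes), to 0 with the numbered series alone (2 genes) and to 3 with the lettered series alone (599 genes), where fewer arrays carry the comparison. With each array left out it ran from 3 to 10. It was 3 without Derlin-1 KO vehicle 2 or KO untreated a, and 5 without Derlin-1 control vehicle 1, vehicle 2 or untreated b. The cause was not tested.

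With 4PBA the count in the Derlin-1 line was 0 to 5 with 1 array left out, and 5 with both doubted arrays left out. For 4PBA in Derlin-1 knockouts it was 0 to 2 and for the difference with and without 4PBA 0 to 1, above 0 only without KO 4PBA a, which leaves the doubted array b as its group. For the difference between lines it was 0 to 3 with 1 array left out, 3 with both doubted arrays left out and 1 with array weights. The replicate block gave 12 called members without 4PBA in the Derlin-1 line and 1 for the difference between lines. The numbers were not taken as pairs, since the labels tie them to nothing shared and not every same-number correlation exceeded 0.1: over 18 pairs of groups they ran from -0.16 to 0.409 and 10 exceeded 0.1.

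Signs also turned without 4PBA in the Derlin-1 line for 8 members that were called in no setting (Ctsa, Ctsb, Lamp2, Glb1, Gaa, Psap, Tpp1 and Lipa), and for the median of the members, which ran from -0.034 to 0.2 there and from -0.113 to 0.036 in the Derlin-2 line with vehicle. The median also turned in the Derlin-1 line with 4PBA (-0.029 to 0.088), for 4PBA in Derlin-1 controls (-0.082 to 0.04) and Derlin-2 controls (-0.228 to 0.094, above 0 only without scaling), and for the difference between series (-0.311 to 0.018). Among the genes named in the other comparisons, under 4PBA in Derlin-1 controls Cd68 was -0.66 to 0.042 and Ctsb -0.108 to 0.003 with each array left out (highest without control vehicle 2 and control 4PBA b), and under 4PBA in Derlin-2 controls Gaa was 0.025 with the mean of probes and Ctsb 0.012 without scaling. Array number, slide position and the lack of stated animals limit all comparisons. The settings without scaling, with median spot signals and without the doubted arrays were chosen after seeing the data.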

Other observations

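Lysosomal levels differed between the slides in the controls themselves, with and without 4PBA pooled. The slides also differed in line or series, and the lettered slide was scanned on another day. These cannot be told apart. Mean control levels of Grn by its brightest probe spanned 1.44 log2 units over the 3 slides. Those of Fuca1 spanned 0.59, of Ctsf 0.50, of Ctsz 0.47, of Ppt1 0.44, of Man2b1 0.43 and of Ctsd 0.43, whereas those of Psap spanned 0.02. For Ctsz, Man2b1 and Ctsd this span was as wide as or wider than the change with Derlin-1 loss. Besides Grn, Glb1 had probes that differed: the brightest changed by -0.02 in Derlin-1 knockouts without 4PBA and the other by 0.29. The V-ATPase subunits had medians of -0.15 in Derlin-1 knockouts with 4PBA, where all 18 were below 0 and none was called, and -0.02 and -0.08 in the Derlin-2 line with vehicle and 4PBA. By slide the Derlin-1 median was -0.18 on the numbered slide, with 3 of 18 above 0. It was -0.13 on the lettered slide, which holds KO 4PBA b, with 2 above 0. The Derlin-2 vehicle median holds KO vehicle 1. No explanation was tested.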
